A study of Homo sapiens with 8 samples.

Results

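Replication-dependent histone genes were followed in U373 astrocytoma cells, an established human line, after exposure to progesterone, to its receptor antagonist RU-486 or to both. A probe set, the group of array probes summarised into one value, was a member when every gene symbol the platform annotation gives it is a clustered histone gene. This rule uses names only, but the members were chosen with earlier results of these data known. The rule took 78 of the 33297 probe sets. They were 6 for linker histone H1, 16 for H2A, 22 for H2B, 14 for H3, 17 for H4 and 3 that name genes of more than 1 class. Of these, 59 carry 1 symbol and 19 carry several. Older symbols brought in H3-4 and the pseudogene H2BP1. 1 further histone probe set was left out because it also names a gene of another kind.

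The study crossed the hormone with the antagonist. The 4 groups, with 2 arrays each, were vehicle, progesterone at 10 nM, RU-486 at 1 µM, and progesterone at 10 nM together with RU-486 at 1 µM, called the combination below. All cells, vehicle included, spent 24 h in 5% hormone-free serum and were then treated for 12 h. Total RNA was hybridised to Affymetrix Human Gene ST arrays, and the labels call the arrays of a group biological replicates and do not say if a separate culture gave each one. The p-values below then cover only the variation among these samples, which may be technical. The sample descriptions write the antagonist's number differently from the titles, and both were read as RU-486.

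Replication-dependent histone genes lie in clusters, carry no introns and are transcribed mainly in S phase, when new DNA needs packing. H2A, H2B, H3 and H4 form the core around which DNA winds, and H1 binds the linker between cores. Their mRNAs end in a conserved stem-loop in place of a poly(A) tail. NPAT drives their transcription in step with cyclin E and CDK2, and the stem-loop binding protein SLBP guides processing, translation and decay of the mRNA. RU-486 (mifepristone) binds the progesterone receptor and the glucocorticoid receptor as an antagonist in most settings.

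Promoters are shown first, since the classes share short sequences by which they are known to be co-regulated. For 65 of the 74 member symbols, RefSeq (assembly GRCh38.p14) gave the window from 250 bases before to 50 bases after the annotated start. Those of 2 linker histones, an H4 gene and an H2B gene are printed because these genes were among the ones with the largest or most even differences between arrays with and without RU-486. Capitals mark matches, on either strand, to CCAAT, to TATAAA, to the octamer ATTTGCAT or to the H1 box AAACACA. A match on the other strand appears as its reverse complement, so ATTGG is CCAAT read on the opposite strand.

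H1-6 (chr6:26108086-26108385, minus strand): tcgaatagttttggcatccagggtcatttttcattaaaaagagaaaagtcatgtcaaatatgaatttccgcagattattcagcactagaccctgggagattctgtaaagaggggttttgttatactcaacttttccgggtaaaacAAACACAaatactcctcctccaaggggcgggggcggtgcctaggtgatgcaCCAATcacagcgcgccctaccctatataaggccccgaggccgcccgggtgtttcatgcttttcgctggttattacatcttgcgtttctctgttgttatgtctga

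H1-3 (chr6:26234938-26235237, minus strand): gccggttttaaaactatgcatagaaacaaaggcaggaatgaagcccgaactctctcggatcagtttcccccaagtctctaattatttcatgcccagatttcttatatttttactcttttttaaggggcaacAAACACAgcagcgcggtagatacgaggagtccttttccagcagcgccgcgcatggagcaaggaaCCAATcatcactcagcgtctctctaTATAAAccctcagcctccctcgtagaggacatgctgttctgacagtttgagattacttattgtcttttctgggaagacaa

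H4C2 (chr6:26027234-26027533, minus strand): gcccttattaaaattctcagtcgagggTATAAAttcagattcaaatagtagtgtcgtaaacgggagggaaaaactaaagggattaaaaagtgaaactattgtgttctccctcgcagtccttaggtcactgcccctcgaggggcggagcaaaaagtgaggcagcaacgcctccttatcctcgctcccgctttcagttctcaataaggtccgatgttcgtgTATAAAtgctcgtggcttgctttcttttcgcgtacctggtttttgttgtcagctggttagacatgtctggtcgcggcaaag

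H2BC9 (chr6:26251364-26251663, plus strand): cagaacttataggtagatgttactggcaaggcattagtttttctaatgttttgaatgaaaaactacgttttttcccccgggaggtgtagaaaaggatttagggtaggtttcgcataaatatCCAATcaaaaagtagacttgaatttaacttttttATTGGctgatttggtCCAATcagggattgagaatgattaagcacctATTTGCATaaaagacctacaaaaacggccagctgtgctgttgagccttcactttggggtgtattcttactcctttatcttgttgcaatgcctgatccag

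H1-6 and H1-3 both hold an H1 box upstream of a CCAAT match, and H1-3 also has a TATAAA match. The H4C2 window has TATAAA matches and no CCAAT, and the H2BC9 window has CCAAT in both orientations followed by the octamer. H4C14, which had a larger RU-486 difference than H4C2 and is not printed, has a window without a match to any of these motifs. Over all 27305 promoters of the table, 35.7% hold CCAAT, 12% hold TATAAA, 1.8% hold the octamer and 5.76% hold the H1 box. The same shares over the 65 histone promoters were 84.6%, 66.2%, 40% and 13.8%. The H1 box was found in 6 of 6 H1 promoters and the octamer in 0 of 6. The octamer was found in 11 of 16 H2A and 14 of 18 H2B promoters, against 1 of 12 for H3 and 0 of 13 for H4. The H3 match is in the first entry for H3C4, whose window is the same as that of H2AC7, so 1 window is counted in both classes. In 11 pairs of an H2A and an H2B gene the windows also overlap, by 253 to 293 bases. There 1 site can count for both genes, as with the octamer of H2AC11 and H2BC11. The H2A, H2B and joint histone shares are therefore not counts of separate sites. CCAAT was present in every H1, H2A, H2B and H3 promoter matched and in 3 of 13 H4 promoters. Matches of different motifs overlapped in 0 of the 65 windows. GC content, which bears on such short matches, was 44.7% over histone promoters against 57.2% over all. These matches describe letters in the window and not bound factors.

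Array medians over all probe sets ran from 6.93 to 7.02 on the log2 scale. As a measure of signal from genes that this line is unlikely to use, 360 olfactory receptor probe sets had a median of 4.63 and a 95th percentile of 6.21, which is called the receptor background below. By their mean over the 8 arrays, 69 members stood above it, against 61% of all probe sets. The 9 members not above it were H1-1, H2AC1, H2AC14, H2BC1, H2BC6, H4C7, H4C16 and both probe sets of H4C11/H4C12. The median member mean was 9.07, and the median over all probe sets was 6.96, but signal strength cannot rank RNA levels between probe sets. In 4 cases a pair of members held identical values on every array: H2AC19/H2AC21/H2AC20/H2AC18, H3C13/H3C15/H3C14, H4C15/H4C14, and H4C14 with H4C15. The members therefore hold 74 separate patterns, and the leading counts are also given over the 74.

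The standard deviation of the difference between the replicates of a group, taken over all probe sets, was 0.24 in the vehicle group and 0.40 in the progesterone group, with 0.23 under RU-486 and 0.25 under both steroids. Over the members it was 0.12, 0.20, 0.11 and 0.16. Combination replicate 1 read lower than replicate 2 for 65 of the 78 members, by a median of 0.13, and results that turn on this array are given with and without it. For the labelled cell type, 10 of 10 astrocyte markers were measured, and their list median was 8.73 to 9.04 over the 8 arrays. These markers were uneven, as the water channel AQP4 stood below the median of the olfactory receptors. Among markers of other cell types, the neuronal, oligodendrocyte, leukocyte and endothelial lists had medians of 5.82 to 6.12, 5.5 to 5.97, 4.82 to 5.3 and 6.01 to 6.35 over the 8 arrays.

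Histone signal was highest with vehicle and lowest with the combination. The median over the 78 members was 9.36 and 9.16 on the vehicle arrays, 9.14 and 9.10 with progesterone, 9.09 and 9.07 with RU-486 and 8.96 and 8.99 with the combination. Each vehicle array stood above each treated array, and both combination arrays stood below all others. Of the 78 members, 56 had their highest group mean with vehicle and 17 with progesterone, but only 1 (H2BC4) with RU-486 and 4 (H1-1, H3-4, H4C6 and H4C7) with the combination. Lowest means lay with the combination for 49, with RU-486 for 15, with progesterone for 11 and with vehicle for 3. Over all probe sets, 20.3% had their highest mean in vehicle and 21.8% their lowest in the combination. With combination replicate 1 left out, the combination was lowest for 33 members.

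Counting members above their own mean over the 8 arrays gave nearly the same order by array, except that combination replicate 2 stood above RU-486 replicate 2. The count was 75 and 64 for the vehicle arrays, 51 and 39 for progesterone, 33 and 18 after RU-486, and 10 and 28 after both steroids. Over all probe sets the shares were 45.7% and 41.2%, 52.6% and 39.1%, 45.6% and 54.4%, and 58.5% and 58.5%. The order by class was alike in part. Vehicle was the highest group for 13 of 14 H3 and 18 of 22 H2B members, but for 10 of 16 H2A and 9 of 17 H4, where progesterone was highest for 6 each.

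**Figure D1:**
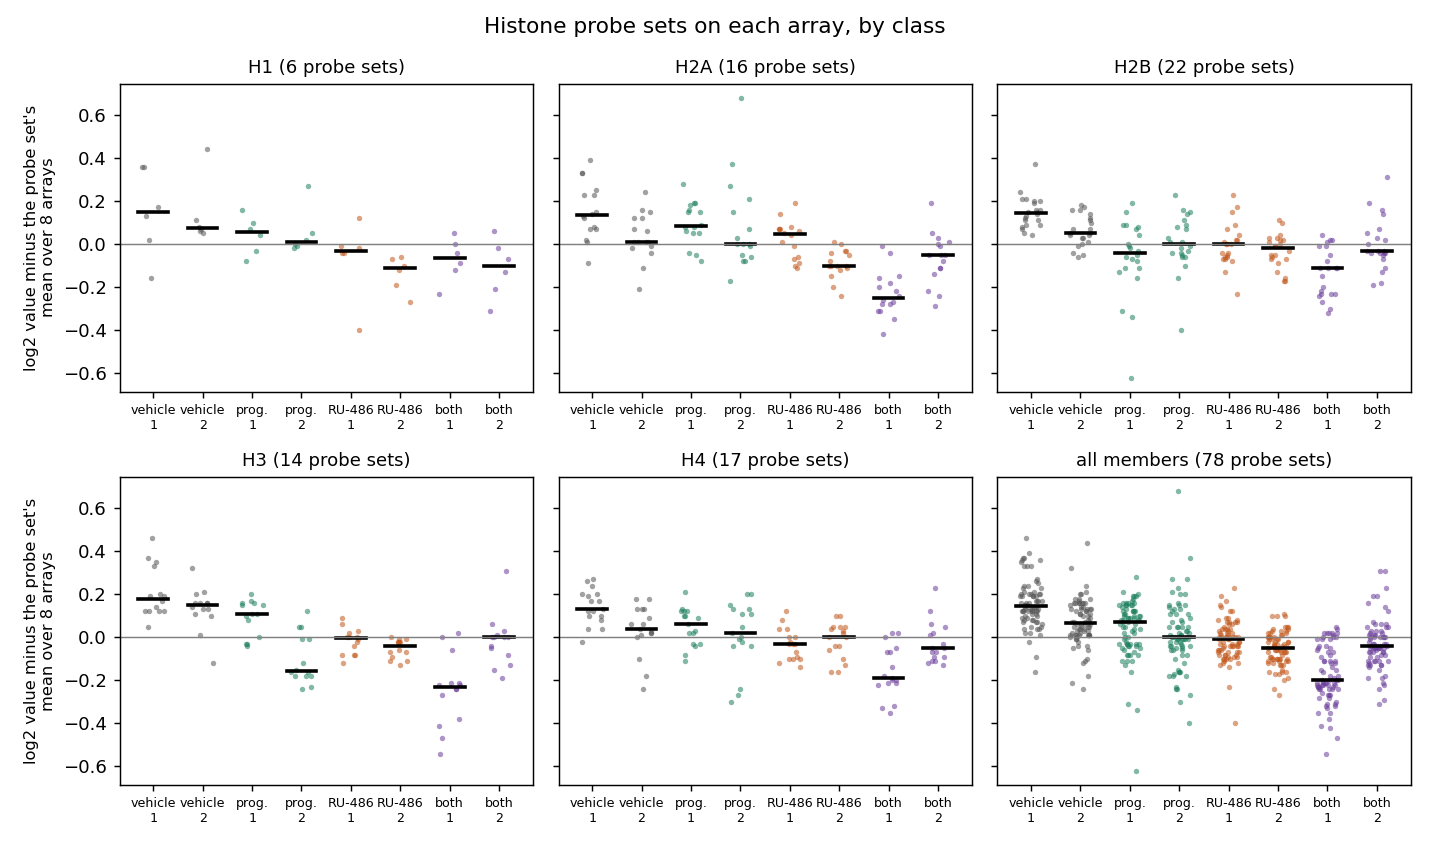
Each of the 78 histone probe sets on each array, drawn as its log2 value minus its own mean over the 8 arrays (y axis), in a panel per class and 1 for all members, with a bar at the median of the array. Points above 0 number 75 of 78 on vehicle replicate 1 and 10 of 78 on combination replicate 1.

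The question whether the antagonist goes with a different histone signal was asked over all 8 arrays, 4 with RU-486 against 4 without, with progesterone balanced. Array values are listed below as vehicle, progesterone, RU-486 and combination, replicate 1 before replicate 2. A lower mean with RU-486 was found for 71 of the 78 members, with a median log2 difference of -0.127, which is small against a doubling. Over all 33297 probe sets 40.2% were lower and the median was 0.027, and over those above the receptor background these values were 36.8% and 0.035. No member passed limma's test at a Benjamini-Hochberg adjusted p under 0.05 and neither did any other probe set (0 of 33297, 0%), with the smallest member value 0.373, for H1-6. At an unadjusted limma p under 0.05, 23 members were lower and 0 higher, against a background of 3.2% lower and 4.84% higher. For 16 members every array with RU-486 read below every array without it, and for 0 above, against backgrounds of 1.04% and 3.56%. Over the 74 separate patterns these counts were 67 lower, 22 at an unadjusted p under 0.05 and 15 separated.

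The count of 71 moved between 66 and 74 as each array was left out in turn, and the median difference moved between -0.169 and -0.095. The count of 23 was less steady. It was 9 without vehicle replicate 1, 14 without RU-486 replicate 1, 11 without RU-486 replicate 2 and 10 without combination replicate 1, while the share of all probe sets called by that rule moved between 1.24% and 8.96%. The count of 16 was 26 without progesterone replicate 1 and 27 without replicate 2, and the share of all probe sets separated that way rose too, to between 1.53% and 4.86% as each array was left out. Leaving out an array cannot lower a count of separated probe sets, so this count and share could only stay or rise.

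**Figure D2:**
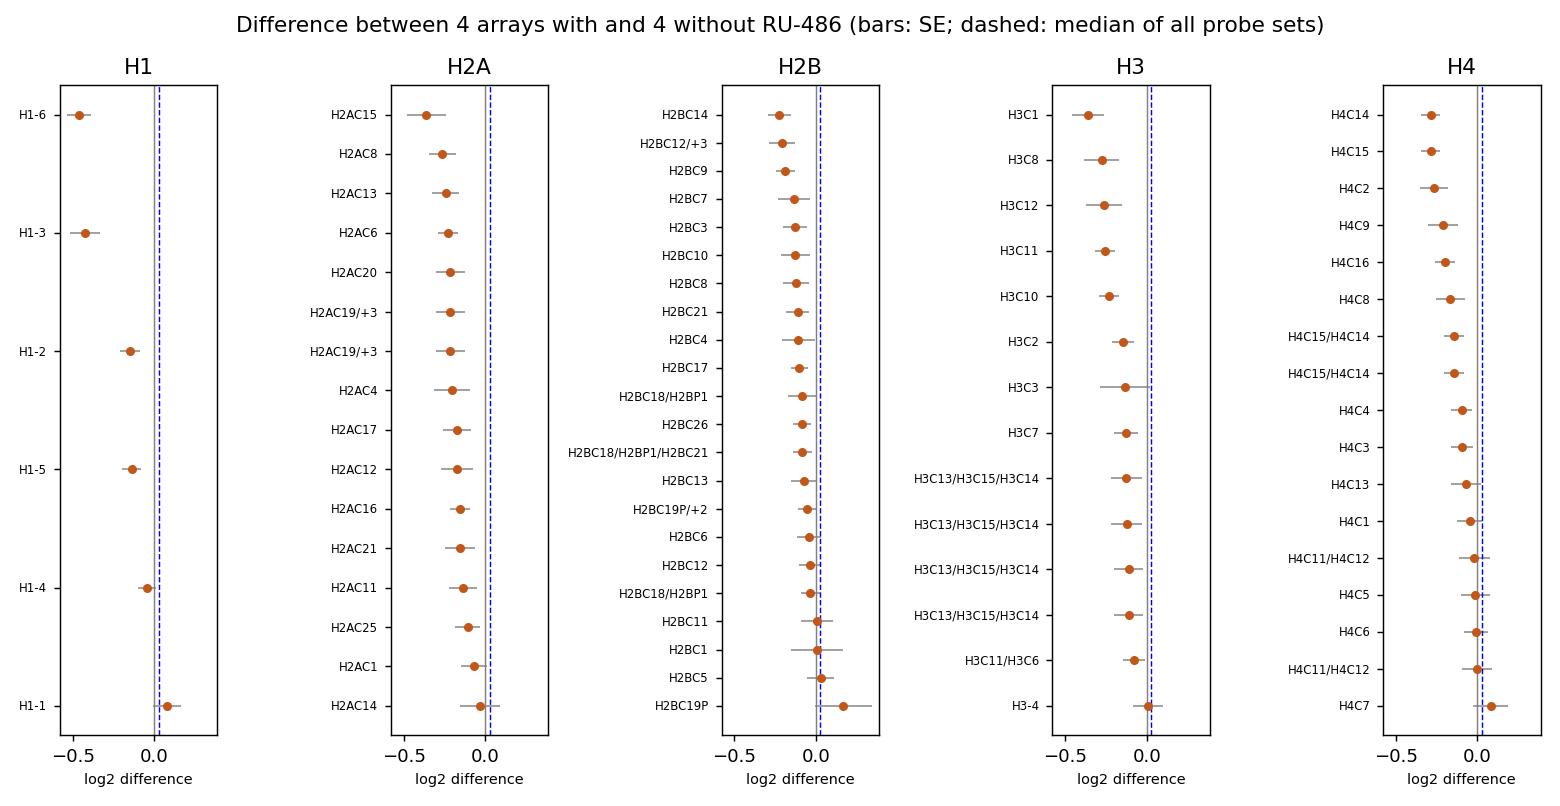
Log2 difference between the 4 arrays with and the 4 without RU-486 for the histone probe sets of each class (the 3 of mixed class are not drawn), with bars of 1 SE, a solid line at 0 and a dashed line at the median of all probe sets (0.027). A plus sign and number stand for further symbols of a probe set. Most points lie left of 0, and H1-6 (-0.46) and H1-3 (-0.43) lie farthest out.

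The linker histones H1-6 and H1-3 held the largest differences of all members. H1-6 is the testis form of H1, and its probe set read 8.43, 8.51, 8.17, 8.09, 7.67, 7.88, 7.95 and 7.86. The 4 arrays with RU-486 were all below the 4 without, and both progesterone arrays lay between vehicle and the rest. The log2 difference with RU-486 was -0.46 (SE 0.072, 1.38-fold lower, limma adjusted p = 0.373). Leaving out 1 array moved it between -0.515 and -0.412. H1-3, a somatic linker histone, read 9.08, 8.78, 8.88, 8.99, 8.68, 8.45, 8.49 and 8.41, again with no overlap between arrays with and without the antagonist. Its difference was -0.43 (SE 0.093, 1.34-fold lower, limma adjusted p = 0.585).

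H1-2 and H1-5, both somatic linker histones, showed smaller gaps of the same direction. H1-2 read 10.73, 10.64, 10.6, 10.56, 10.54, 10.44, 10.52 and 10.43, and H1-5 read 11.98, 11.92, 11.92, 11.84, 11.81, 11.75, 11.76 and 11.78. In both, the lowest array without RU-486 lay just above the highest with it. Their differences were -0.15 (SE 0.061) and -0.14 (SE 0.057), each with a limma adjusted p of 0.62. H1-4, the H1 probe set with the strongest signal, read 14.03, 14.06, 13.98, 14.06, 14.00, 13.95, 14.01 and 13.99, with groups that overlapped and a difference of -0.04 (SE 0.055). H1-1 read 6.04, 6.31, 6.12, 6.18, 6.32, 6.13, 6.25 and 6.26, at the receptor background, with a difference of 0.08 (SE 0.085). The 6 H1 probe sets had a median difference of -0.144.

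**Figure D3:**
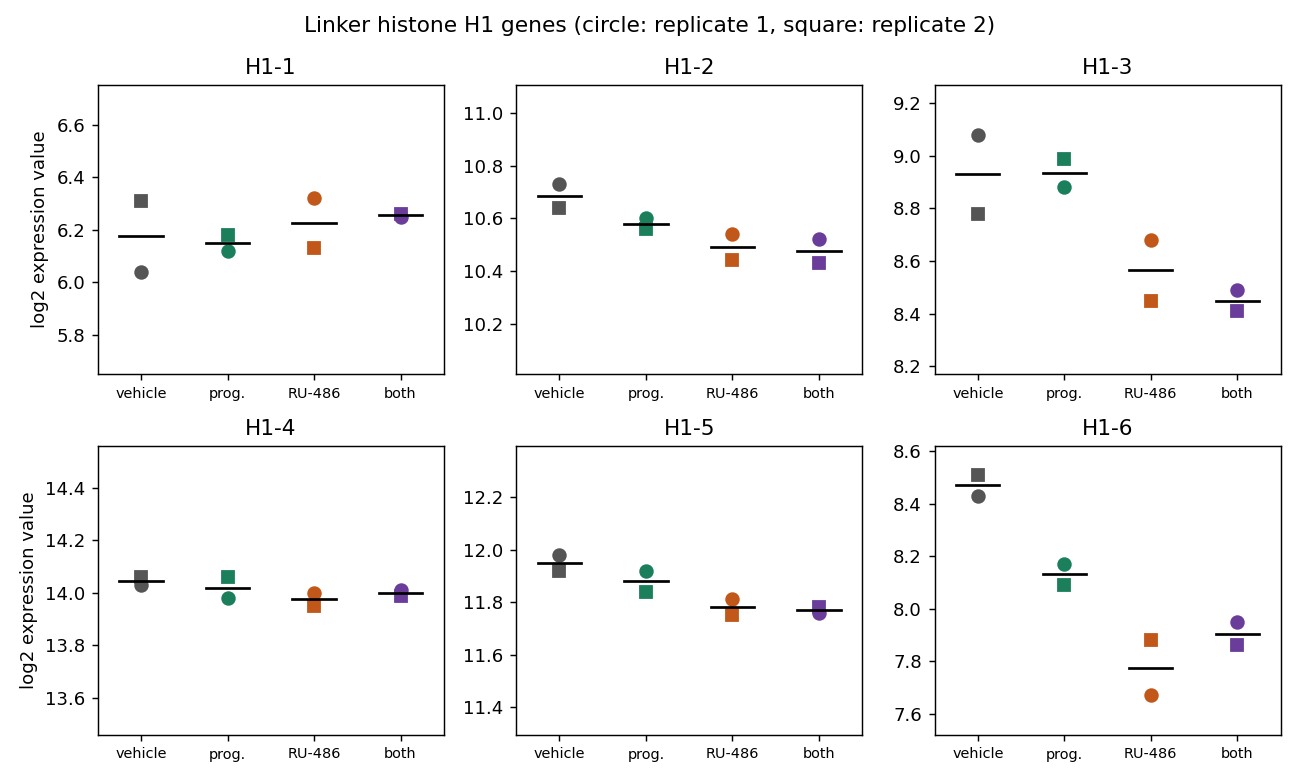
The 6 linker histone probe sets on the 8 arrays, as log2 values by group, with circles for replicate 1, squares for replicate 2 and bars at the group mean. In H1-6, H1-3, H1-2 and H1-5 the arrays with RU-486 lie below those without it, and in H1-4 and H1-1 they overlap.

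All 16 H2A members had a lower mean with RU-486, with a median difference of -0.191. At an unadjusted limma p under 0.05, 6 were lower (background 3.2%). H2AC8 was the 1 H2A member whose arrays separated (background 1.04% lower), at 6.95, 6.89, 6.96, 7.25, 6.77, 6.78, 6.66 and 6.8. Its difference was -0.26 (SE 0.083, limma adjusted p = 0.62). H2AC6 read 9.78, 9.77, 9.87, 9.86, 9.79, 9.63, 9.47 and 9.47. Here RU-486 replicate 1 matched vehicle while both combination arrays were clearly low. The difference was -0.23 (SE 0.061, limma adjusted p = 0.62).

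H2AC15 read 10.13, 10.01, 10.27, 10.8, 10.03, 10.02, 9.81 and 9.9. The progesterone arrays were the highest and differed between themselves by more than any other group, and RU-486 alone overlapped vehicle. Its difference of -0.36 (SE 0.119, limma adjusted p = 0.62) became -0.229 at the smallest when 1 array was left out. H2AC13 read 10.98, 10.89, 10.88, 10.65, 10.63, 10.68, 10.46 and 10.68, where progesterone replicate 2 fell among the arrays with RU-486. The difference was -0.24 (SE 0.083, limma adjusted p = 0.62). H2AC21, with the strongest H2A signal, read 12.93, 12.85, 12.87, 12.77, 12.83, 12.75, 12.43 and 12.79, and only combination replicate 1 stood apart. Its difference was -0.15 (SE 0.093) over all arrays and between -0.246 and -0.063 as arrays were left out. The remaining H2A members had differences from -0.21 (H2AC20 and the identical pair H2AC19/H2AC21/H2AC20/H2AC18) to -0.03 (H2AC14, below the receptor background).

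H2B members differed less. Of 22, 18 had a lower mean with RU-486, and the median was -0.085. H2BC14 read 8.33, 8.13, 8.38, 8.35, 8.13, 8.21, 7.96 and 8.0, where vehicle replicate 2 overlapped RU-486 alone and the combination was lowest. Its difference was -0.22 (SE 0.068, limma adjusted p = 0.62). H2BC9, whose promoter is shown above, read 12.96, 12.9, 12.93, 12.96, 12.87, 12.79, 12.62 and 12.72, with no overlap. The difference was -0.19 (SE 0.059, limma adjusted p = 0.62).

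A probe set shared by H2BC12, H2BC12L, H2BC17 and H2BC5 read 12.14, 11.99, 12.1, 11.96, 11.95, 11.86, 11.68 and 11.88, with a difference of -0.21 (SE 0.078). The single-symbol probe sets of 3 of those genes gave other values: -0.10 (SE 0.054) for H2BC17, -0.04 (SE 0.067) for H2BC12 and 0.03 (SE 0.084) for H2BC5. Probe sets for near-identical coding sequences can take signal from each other, so such values are uncertain for any single gene. H2BC17 read 7.15, 7.23, 7.04, 7.04, 6.94, 6.94, 7.08 and 7.09, so RU-486 alone was lowest and the combination stood slightly above progesterone. The strongest H2B signal, in a probe set for H2BC21 and the pseudogenes H2BC19P and H2BC20P, read 13.19, 13.14, 13.22, 13.16, 13.11, 13.12, 13.14 and 13.11, with a difference of -0.06 (SE 0.055). The 4 H2B members with a higher mean were H2BC5, H2BC11 and H2BC1, at 0.03, 0.01 and 0.01, and the pseudogene H2BC19P, at 0.17 (SE 0.175).

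Among H3 members 13 of 14 had a lower mean with RU-486, with a median of -0.131, or -0.081 without progesterone replicate 1, -0.198 without progesterone replicate 2 and -0.082 without combination replicate 1. H3C11 read 13.07, 12.99, 12.98, 13.00, 12.84, 12.79, 12.61 and 12.75. Vehicle and progesterone were level, and all 4 arrays with the antagonist were below them. The difference was -0.26 (SE 0.062, 1.2-fold lower, limma adjusted p = 0.603). H3C10 read 8.36, 8.35, 8.37, 8.27, 8.14, 8.16, 7.98 and 8.14, also without overlap, and differed by -0.23 (SE 0.064, limma adjusted p = 0.62).

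H3C1 read 9.54, 9.38, 9.33, 9.16, 9.19, 9.17, 8.63 and 8.98. Its arrays stepped down from vehicle through both single treatments, which overlapped each other, to the combination. The difference with RU-486 was -0.36 (SE 0.098, 1.28-fold lower, limma adjusted p = 0.62). H3C8 read 10.47, 10.32, 10.27, 9.97, 10.21, 10.1, 9.65 and 9.97, highest with vehicle, and progesterone replicate 2 equalled combination replicate 2. It had a difference of -0.28 (SE 0.107). The strongest H3 signal, in a probe set for H3C13, H3C15 and H3C14, read 13.27, 13.29, 13.31, 12.99, 13.14, 13.14, 12.93 and 13.15, with overlap and a difference of -0.12 (SE 0.093). The 1 H3 member with a higher mean was H3-4, a testis-type H3 gene, at 0.01 (SE 0.094). The others lay between -0.26 (H3C12) and -0.08 (H3C11/H3C6).

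For H4, 16 of 17 members had a lower mean with RU-486 and the median was -0.097. Most H4 genes encode the same core histone protein. H4C14 and H4C15 share 1 set of values, 12.76, 12.77, 12.76, 12.84, 12.54, 12.48, 12.43 and 12.53. Vehicle and progesterone were level and every array with RU-486 was clearly lower. The difference was -0.29 (SE 0.060, 1.22-fold lower, limma adjusted p = 0.552). Another probe set for the same genes, H4C15/H4C14, read 9.43, 9.39, 9.35, 9.44, 9.37, 9.29, 9.13 and 9.24 and overlapped, with a difference of -0.15 (SE 0.063).

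H4C2, whose promoter is shown above, read 11.28, 11.17, 11.14, 11.09, 11.01, 10.91, 10.69 and 11.01. Arrays with and without RU-486 did not overlap, and combination replicate 1 was the lowest by a wide gap. The difference was -0.27 (SE 0.086, limma adjusted p = 0.62). H4C16 read 5.94, 5.77, 5.86, 5.9, 5.75, 5.67, 5.63 and 5.64, separated but below the receptor background, with a difference of -0.20 (SE 0.064). H4C3, the strongest H4 signal, read 13.17, 13.16, 13.09, 13.28, 13.13, 13.17, 12.95 and 13.06 and differed by -0.10 (SE 0.068). H4C5 read 12.98, 12.96, 12.75, 12.48, 12.86, 12.83, 12.59 and 12.84. Its difference of -0.01 (SE 0.089) had no direction, at 0.055 without progesterone replicate 1 and 0.047 without combination replicate 1. The 1 H4 member with a higher mean was H4C7, at 0.08 (SE 0.108) and below the receptor background.

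The 3 probe sets that name genes of more than 1 class were H3C10/H2AC13 at -0.24 (SE 0.065), H3C4/H2AC7 at -0.19 (SE 0.074) and H2BC15/H2AC15 at -0.13 (SE 0.062). The first and second separated arrays with RU-486 from those without. By the older symbols, which name the cluster, 50 of 55 probe sets of HIST1 were lower with RU-486, with a median of -0.134. In HIST2 it was 17 of 18 with a median of -0.123, and in HIST3 2 of 3 with a median of -0.085. H2A and H2B genes often start head to head from 1 shared promoter region. Among 11 pairs of an H2A and an H2B gene whose RefSeq windows overlap, 9 had a single-symbol probe set for each gene, and both genes had a lower mean in 7. The gap between the partners' differences ran from 0.023 to 0.194 with a median of 0.121, about as large as the median difference of the members themselves.

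RU-486 against vehicle and the combination against progesterone ask the same question without and with the hormone, and share no array. RU-486 alone gave a lower mean than vehicle for 71 members, with a median of -0.142, against 44.4% of all probe sets and a median of 0.016. At an unadjusted limma p under 0.05, 12 were lower and 0 higher, against a background of 1.19% and 1.92%. The arrays did not overlap for 53, all lower, against backgrounds of 15% lower and 22.8% higher. Over the 74 patterns the counts were 67 lower, 11 at an unadjusted p under 0.05 and 50 separated. In the presence of progesterone 59 were lower, with a median of -0.12, against 45.3% and 0.022. There 13 were lower and 0 higher at an unadjusted p under 0.05 (background 3.48% and 7.24%), and arrays separated for 34 lower and 3 higher (background 12.9% and 24.4%). Adjusted limma calls were 0 in both comparisons, among members and among all probe sets (0%). The median without progesterone was -0.088 when vehicle replicate 1 was left out, and the median with it was -0.063 and -0.214 when combination replicates 1 and 2 were left out.

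A lower mean in both comparisons was found for 54 members (69.2%), against 21.6% of all probe sets, and a higher mean in both for 2 (H1-1 and H3-4). Without combination replicate 1 the count of 54 was 44. Counting identical probe sets once gave 50 of 74. The class counts in the second comparison were unequal. H2A was lower in 16 of 16 with a median of -0.201, H4 in 13 of 17 with -0.179, H3 in 11 of 14 with -0.091 and H1 in 5 of 6 with -0.107, but H2B in 11 of 22 with -0.014. Without progesterone H2B was lower in 21 of 22, with a median of -0.12. This difference between classes was not tested.

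Individual members were not equally placed in the 2 comparisons. H1-6 differed by -0.70 (SE 0.102) without progesterone and by -0.23 with it, and H1-3 by -0.36 and -0.49. H2AC15 differed by -0.04 without progesterone and -0.68 with it, H2AC6 by -0.07 and -0.39, and H3C12 by -0.46 and -0.06. The interaction, which is the test of such differences, gave 0 calls over all probe sets (0%), and the smallest adjusted limma p among members was 0.889. At an unadjusted p under 0.05 it gave 3 members below 0 (H2AC15 at -0.64, H2AC20 at -0.52 and H2AC6 at -0.33) and 2 above (H1-6 at 0.47 and H2BC17 at 0.29). The background was 1.86% and 3%, and 3 and 2 of 78 are close to it. Its median over members was 0.02 and turned to -0.011 after quantile normalization, and it ran from -0.045 without combination replicate 2 to 0.089 without replicate 1, and 37 members lay below 0, against 29 after median centring.

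**Figure D4:**
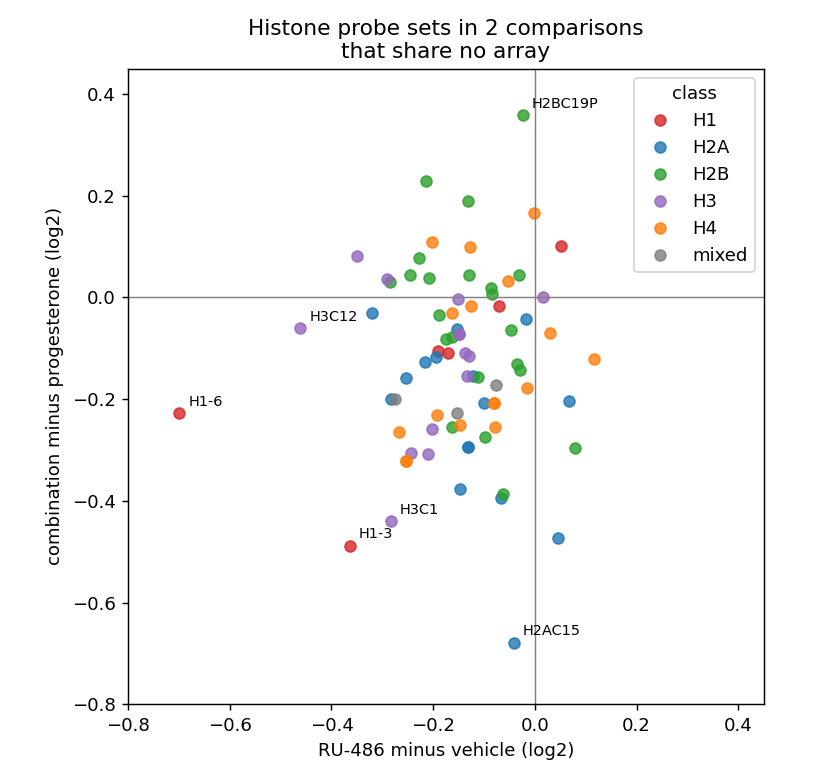
Each histone probe set by its log2 difference between RU-486 and vehicle (x axis) and between the combination and progesterone (y axis), coloured by class. The area where both differences are below 0 holds 54 of 78 points, and H1-6, H3C12 and H2AC15 lie off the diagonal.

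Median differences for progesterone were smaller. Against vehicle, 59 members had a lower mean with progesterone alone, with a median of -0.095, against 48.6% of all probe sets and a median of 0.005. The member median was -0.045 without vehicle replicate 1 and -0.061 without progesterone replicate 2. The count was 69 after median centring and 51 after quantile normalization, and progesterone replicate 1 had the highest array median (7.02). Limma called 0 members and 0 probe sets (0%), and at an unadjusted p under 0.05 7 members were lower and 2 higher (background 2.64% and 3.06%). The 7 were H1-6, H2AC12, H2BC3, H2BC5, H3C12, H4C1 and H4C5, and the 2 were H2AC15 at 0.47 and H2AC20 at 0.34. Arrays separated for 34 lower and 7 higher, against 15.7% and 16.5%.

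Over all 8 arrays, the 4 with progesterone were lower than the 4 without for 61 members (69 after median centring), with a median of -0.08, against a median of 0.021 for all probe sets. No adjusted call was made (0%), with the smallest member value 0.801. Without combination replicate 1 the median was -0.045. At an unadjusted p under 0.05, 6 were lower and 0 higher (background 2.04% and 2.5%). H2AC12 was the 1 member whose 4 arrays with progesterone all lay below the 4 without (background 1.07%), and 0 lay above (background 1.88%); it read 8.08, 7.99, 7.7, 7.58, 7.89, 7.75, 7.33 and 7.7. Its difference with progesterone was -0.35 (SE 0.097, limma adjusted p = 0.801). H2BC3 read 10.7, 10.65, 10.42, 10.43, 10.58, 10.42, 10.25 and 10.45, where RU-486 replicate 2 overlapped the arrays with progesterone. In H4C5, listed above, the 3 lowest arrays held the hormone, and combination replicate 2 overlapped RU-486 alone. Their differences with progesterone were -0.20 (SE 0.072) and -0.24 (SE 0.089). H3C1, H3C8 and H3C12 differed by -0.29, -0.31 and -0.32, and the class medians ran from -0.126 for H3 to -0.047 for H1. The H3 median was -0.196 and -0.064 without progesterone replicates 1 and 2, and that of H1 was -0.013 without RU-486 replicate 1.

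By the median over members, both steroids together stood farthest from vehicle. The combination gave a lower mean than vehicle for 71 members, against 37% of all probe sets. The member median was -0.223, while over all probe sets the median was 0.057. As each array was left out in turn, the member median ran from -0.285 to -0.153 and the count of 71 from 67 to 75. Limma called 0 members and 0 probe sets (0%), with 28 members lower and 0 higher at an unadjusted p under 0.05 (background 4.42% and 4.75%) and arrays separated for 60 lower and 0 higher (background 18.4% and 35.9%). The largest differences were -0.66 (SE 0.139) for H3C1, -0.59 (SE 0.152) for H3C8, -0.58 (SE 0.157) for H3C12, -0.57 (SE 0.102) for H1-6 and -0.52 (SE 0.138) for H2AC12. Of these, all but H1-6 read lower on combination replicate 1 than on replicate 2. H2B was lower in 22 of 22, with a median of -0.17. This comparison shares its vehicle arrays with those of each single drug.

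Adding progesterone to RU-486 gave a lower mean for 56 members, against 43.1% of all probe sets. The median was -0.088 over members and 0.025 over all probe sets. As each array was left out in turn, the count of 56 ran from 38 to 60. The member median was 0.001 without combination replicate 1 and -0.167 without replicate 2. Arrays separated for 23 lower and 4 higher (background 17.8% and 27.9%). At an unadjusted limma p under 0.05, 3 members were lower and 0 higher (background 1.84% and 2.29%): H2AC6, H2BC4 and H3C1, at -0.24, -0.39 and -0.37. Adjusted calls were 0 (0%). A moderated F test for any difference among the 4 groups called 0 members and 0 probe sets (0%), with 15 members at an unadjusted p under 0.05 (background 5.79%) and a smallest adjusted value of 0.787.

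Genes that make, process or carry histone mRNA and protein had list medians nearer 0 than the members in the average over both RU-486 comparisons, but not the same values in each. Of 22 genes of histone transcription and mRNA 3′ processing, 20 were measured, and 6 had a lower mean with RU-486 while 14 were higher, with a median of 0.034. Without progesterone 19 of the 20 were lower, with a median of -0.075, and with it 6 were lower, with a median of 0.098. None of the 20 was called. ZNF473, a zinc-finger component of the processing machinery, differed by 0.25 (SE 0.067), the cleavage factor CPSF2 by -0.24 (SE 0.086) and the phosphatase CDC25A, which activates CDK2, by 0.16 (SE 0.065), each with a limma adjusted p of 0.62. NPAT read 8.36, 9.10, 8.07, 9.37, 8.05, 8.38, 7.84 and 7.75. Its replicates differed by over a log2 unit within progesterone, and the difference of -0.72 (SE 0.304, limma adjusted p = 0.622) is no larger than that spread. SLBP read 10.36, 10.35, 10.31, 10.23, 10.28, 10.26, 10.49 and 10.38, with the combination highest.

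Of 22 histone chaperones, which escort histones to and from DNA, 11 were lower with RU-486, and the median was 0.004. Against vehicle 14 were lower (median -0.024), and against progesterone 8 (median 0.056). ANP32E, a chaperone of H2A.Z, differed by -0.42 (SE 0.181) and HAT1, which acetylates new H4, by -0.24 (SE 0.113). HIRA and CABIN1, of the complex that deposits H3.3 outside S phase, differed by 0.16 (SE 0.084) and 0.14 (SE 0.073). Among 11 measured replication-independent or variant histones, most of them with polyadenylated mRNAs, 6 were lower and the median was -0.002. H2AZ2 differed by -0.13 (SE 0.059), MACROH2A2 by 0.10 (SE 0.067), H3-3B by -0.08 (SE 0.059) and H2AZ1 by 0.08 (SE 0.065). The adjusted limma p of these genes was 0.627 or higher.

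Genes of the cell cycle were set beside the histones because histone mRNA marks S phase. Of 31 measured G1/S genes, 15 were lower with RU-486 and the median was 0.007. RU-486 alone was lower than vehicle for 29 of them (median -0.061), against 44.4% of all probe sets. There the arrays separated for 18 lower and 1 higher (background 15% and 22.8%). By contrast, the combination was lower than progesterone for 9 and higher for 22 (median 0.06), against 45.3% of all probe sets lower. In RU-486 against vehicle this list thus moved with the histones, and its part in that result was not tested. CLSPN, a replication checkpoint protein, differed by -0.42 (SE 0.189), E2F8 by -0.14 (SE 0.066), POLA1, a DNA polymerase subunit, by -0.18 (SE 0.097), and RPA2, which binds single-stranded DNA, by 0.11 (SE 0.054), averaged over both. Of 29 G2/M genes, 23 were lower, with a median of -0.098. At an unadjusted limma p under 0.05, 9 were lower (background 3.2%), with 0 adjusted calls. DLGAP5, a spindle protein, differed by -0.83 (SE 0.193, limma adjusted p = 0.596), the checkpoint kinases BUB1B and BUB1 by -0.27 (SE 0.067) and -0.30 (SE 0.077), and KIF23, a kinesin of cytokinesis, by -0.41 (SE 0.127). The G2/M median per array was 10.77 and 10.93 with vehicle, 10.77 and 10.92 with progesterone, 10.64 and 10.71 with RU-486 and 10.34 and 10.51 with the combination. The G2/M arrays with RU-486 were all below those without it, as were the histone medians, and its part in the result was not tested. In bulk RNA, fewer cells in S phase and less histone mRNA per cell cannot be told apart.

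**Figure D5:**
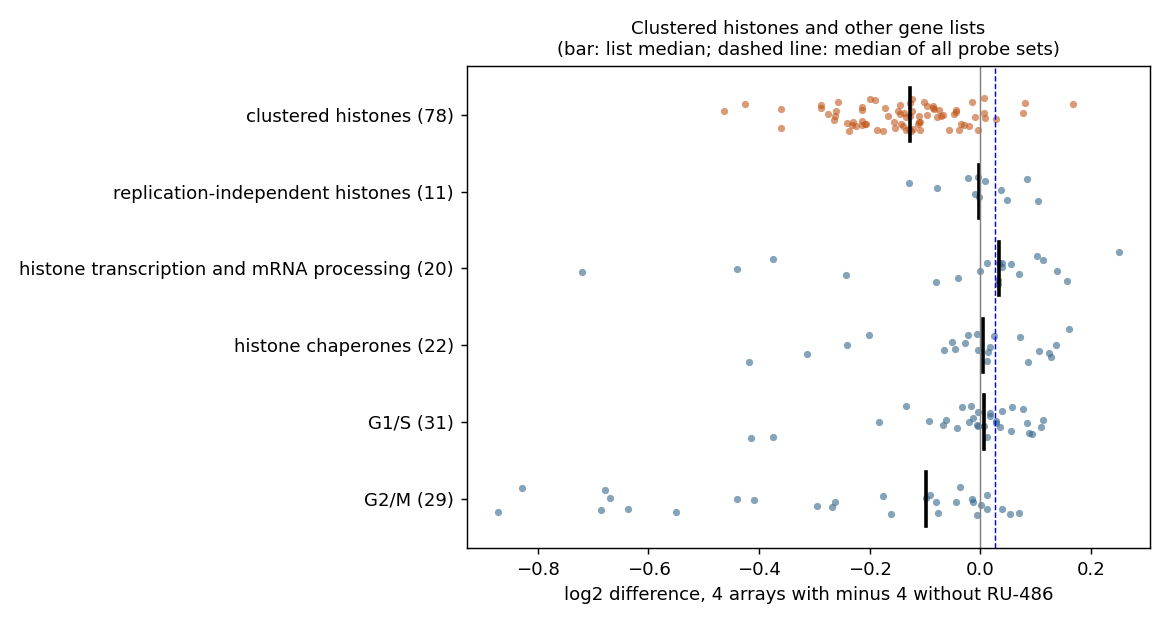
Log2 difference between arrays with and without RU-486 for the histone members and 5 other gene lists, with a bar at each list median. The histone median is -0.127, the G2/M median -0.098, and the other 4 lie between -0.002 and 0.034.

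Markers of cell types were placed beside these results in the same way. Of 10 astrocyte markers, 7 were lower with RU-486 and the median was -0.019. The glutamate transporter SLC1A3 differed by 0.46 (SE 0.063, limma adjusted p = 0.28) and GFAP, the astrocyte filament protein, by -0.22 (SE 0.099). Medians for the other types were 0.065 for 4 neuronal, 0.006 for 3 oligodendrocyte, 0.049 for 5 leukocyte and 0.04 for 3 endothelial markers, with 0 of 15 at an unadjusted p under 0.05.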

How the data were processed

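Total RNA from 8 samples was measured on 1-colour arrays. The authors deposited 1 log2 value per probe set and array, and the submitters' processing notes name the tools RMA, oligo and limma; their versions are not given in the sources used here. RMA as a method equalises arrays, so a shift shared by most genes would not be seen, and differences of dim probe sets are compressed. The small number of arrays limits precision.

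Members were found from the platform annotation's symbols, and the members and lists were chosen with earlier results of these data known. All 33297 probe sets entered 1 limma 3.58.1 fit in R 4.3.3 (lmFit, eBayes; group means, 4 residual degrees of freedom), for 8 contrasts and an F test, with Benjamini-Hochberg adjustment within each and a threshold of 0.05. The fit was checked on simulated data. No filter was set. All H1 members were named, and in each other class the 4 with the smallest p for RU-486, the 1 with the smallest for progesterone and the strongest signal; from lists, up to 4 by p. Genes named as members of short counts, and SLBP, H2AC20, H2BC4, H2BC5, H2BC12 and H3C12, were named after their values were seen. The H1 box was added to the motifs later. Replicate numbers did not pair the samples, since not every correlation of replicate deviations between groups was over 0.1 (0.05 to 0.22). Alternatives were normalization, a filter, array weights, 1 probe set per gene, a block and leaving out arrays.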

Additional observations from a re-analysis of the deposited data

How the results depend on the processing

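Member medians kept their direction under the alternatives tried, except for the interaction and for the combination against RU-486. Adjusted calls among members were 0 in every one. Over all probe sets, the average RU-486 effect had 6 calls with 1 probe set per gene and 6 with a filter on dim probe sets, RU-486 against vehicle had 1 with array weights, and the interaction had 1 after quantile normalization. None of these was a histone. With the replicate block, the median average RU-486 difference was -0.127 and the adjusted p of H1-6 was 0.251, and no call was made.

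Leaving out 1 array each time, the median of the combination against progesterone ran from -0.214 to -0.063. That of the combination against RU-486 ran from -0.167 to 0.001, and members lower at an unadjusted p under 0.05 with RU-486 from 9 to 29. Members separated by RU-486 ran from 16 to 27, while the share of all probe sets so separated ran from 1.53% to 4.86%. Counts of separated probe sets cannot fall when an array is left out. H4C5 ran from -0.083 to 0.055 and reversed without progesterone replicate 1 (0.055) and without combination replicate 1 (0.047). The causes were not tested. Array weights were 0.38 for each progesterone array. The 2 arrays a group leave 4 residual degrees of freedom, and for 9 members the signal was not above the receptor background.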
